A study of Mus musculus with 3 samples.

Results

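Complement is a cascade of plasma and membrane proteins, and 35 of its components, receptors and regulators were examined in endothelial cells of the adult mouse renal cortex. The genes were chosen by function, and each was read at its probeset assigned to 1 gene, at the highest mean where there were several. Of the 35 genes, 33 had such a probeset, and each of these 33 had 1 only, among 19938 genes with a probeset of their own. C3 and Cfd had none in the probe annotation used here and were not analysed here. Expression was measured on arrays in 3 samples, called replicates 1, 2 and 3, each from 1 kidney of an adult mouse carrying the transgene Tg(TIE2GFP)287Sato on a mixed background that was primarily CD-1, with the sex given as unknown. In these mice the Tie2 (Tek) promoter, which some myeloid cells also use, drives GFP, and GFP positive cells were sorted from cortex from which medulla and glomeruli had been removed. The samples form 1 group with no treatment and no control group, so no difference between conditions could be tested.

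Complement can be started by the C1 complex binding to antibody (the classical pathway), by mannose-binding lectins binding to sugars (the lectin pathway), or by slow spontaneous activation on surfaces (the alternative pathway). All routes meet at the cleavage of the component C3, and the terminal components then assemble into a pore in the target membrane. Most circulating components are made by the liver, while cells in contact with plasma, endothelial cells among them, carry membrane regulators that halt the cascade on their own surface, and the kidney is known as an organ where failure of this regulation injures the microvasculature.

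The deposited values are log2 signals. Each was compared with a signal of 100, the level of the low-expression filter of the study, which is 6.64 on the log2 scale. The study set that level for raw signals in 3 samples, and here it is set against the mean of the deposited values. A call here is therefore not that of the filter. The test was a one-sided one-sample test of limma fitted to all probesets. The words "above" and "below" refer to this test at an adjusted p under 0.05. Signals of different probesets depend on their probes, so levels are set against this limit and never against another gene. Because these are bulk samples, a low signal from few cells of a type cannot be told apart from a low level per cell. The 3 columns had medians of 5.70, 5.70 and 5.66.

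The sort was checked with markers of cell types. All 10 endothelial markers were above 100, among them Pecam1 at 10.07 ± 0.02 (SD, n = 3) and Cdh5 at 10.62 in each sample. Of 12 macrophage and monocyte markers 0 were above by limma, 0 at an unadjusted p under 0.05, while 10 were below and Cx3cr1 and Tyrobp were neither. Cd68, Adgre1 and Csf1r lay at 5.19, 4.36 and 4.92 in each sample. Tyrobp had 6.96, 6.96 and 7.60 in replicates 1, 2 and 3, over the limit in each sample. Cx3cr1 had 6.37, 6.37 and 6.58, under the limit in each. A low myeloid signal is therefore not excluded. The 6 measured lymphocyte markers and the 5 neutrophil markers were all below. Epithelial markers were present, with 9 of 10 proximal tubule genes and 4 of 6 genes of the thick ascending limb and distal segments above 100. Mean log2 signals of the proximal tubule genes ran from 7.78 for Slc3a1 to 12.86 for Kap. Those of the thick ascending limb and distal genes ran from 6.86 for Aqp2 to 10.75 for Umod. From a proximal tubule signature, the study inferred a minor contamination of its cortical cells. Among markers of smooth muscle, pericytes and mesangium, Rgs5 was above, Cspg4 below and 4 neither.

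**Figure D1:**
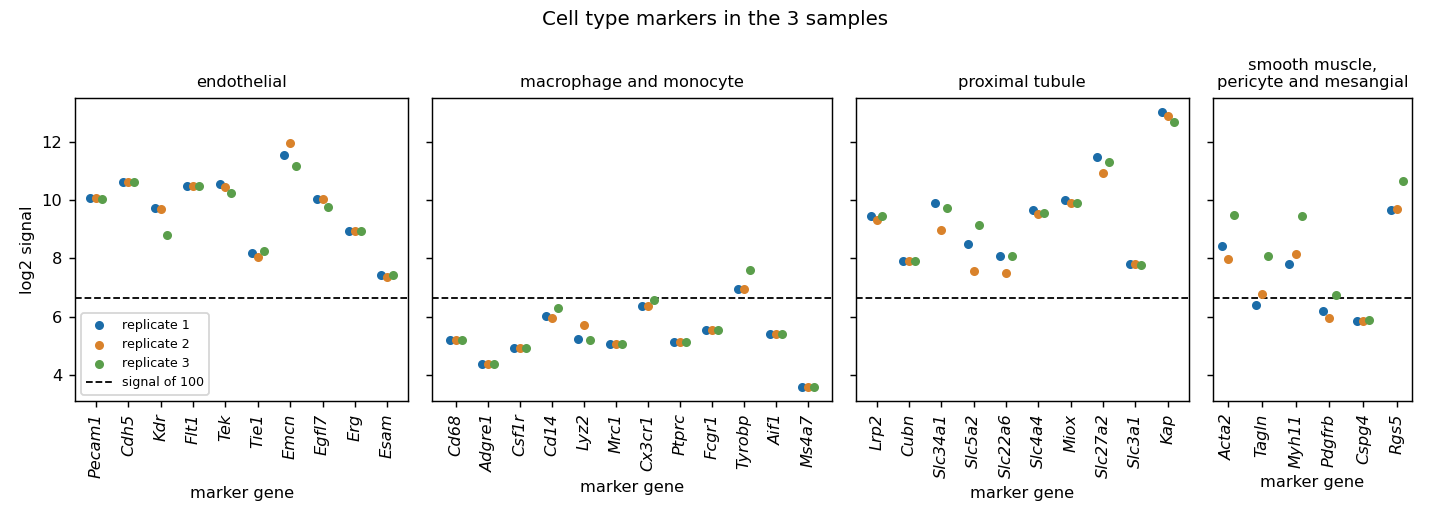
Log2 signal of marker genes of endothelium, macrophages and monocytes, proximal tubule, and smooth muscle with pericytes and mesangium, 1 point per replicate, with the signal of 100 as a dashed line. The endothelial and proximal tubule markers lie over the line in every sample, and Acta2, Tagln, Myh11, Pdgfrb and Rgs5 are higher in replicate 3 than in the others.

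Of the 33 complement genes 6 were above the limit of 100, against 22.9% of all genes. They were Cd93, a receptor of endothelial and myeloid cells, Cr1l, the rodent membrane regulator also called Crry, Serping1, the C1 inhibitor, Clu, the terminal pathway inhibitor clusterin, Cfb, the protease factor B of the alternative pathway, and Cfp, its stabilizer properdin. Another 25 were below, against 65.0% of all genes, and C1s1 and Cd59a were neither. The share above was 18.2% and lay close to the share of all genes. The median of the mean log2 signals was 5.23 over the members and 5.88 over all genes. The same 6 genes reached 100 in each of the 3 samples, as did 28.0% of all genes. With probesets of equal values given the typical spread of the rest, 5 members were above, against 20.7% of all genes, and 26 below, against 62.3%. Without replicate 1 the number above was 3, with Cfb, Clu and Serping1 no longer called. The share of all genes was not computed for that setting.

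**Figure D2:**
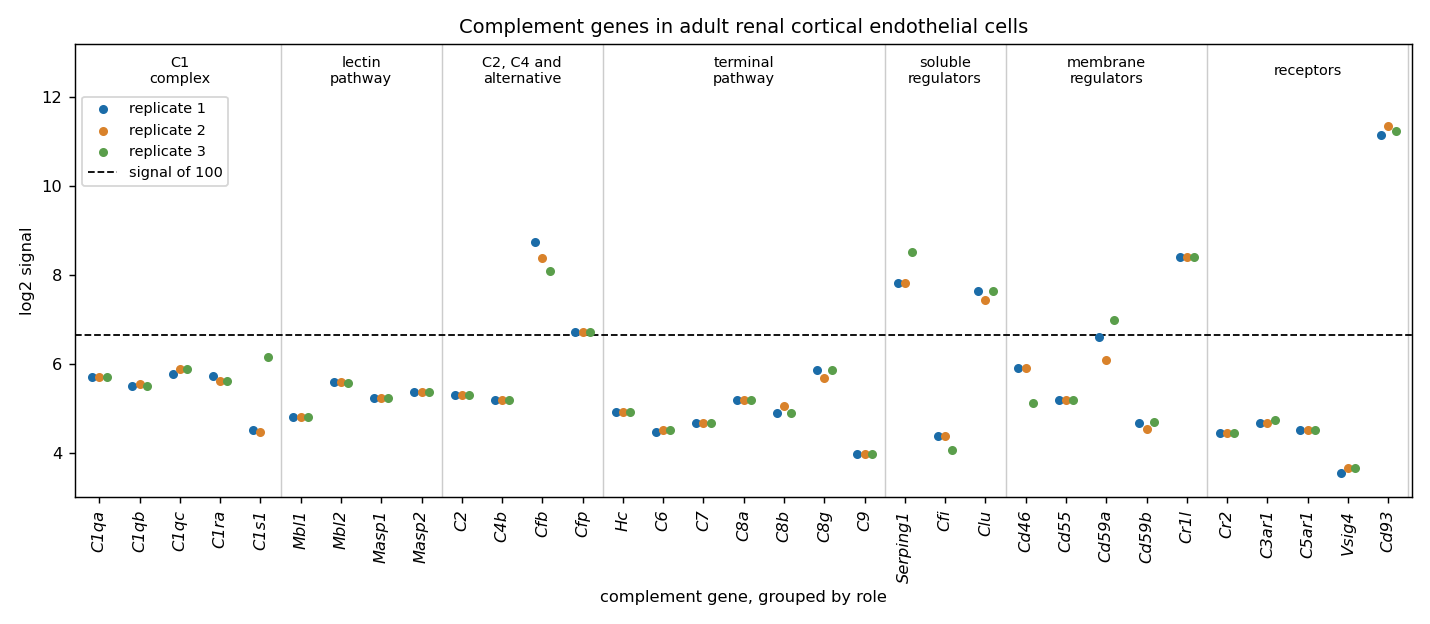
Log2 signal of the 33 measured complement genes, grouped by role, 1 point per replicate, with the signal of 100 as a dashed line. Cd93, Cr1l, Serping1, Cfb and Clu lie clear of the line, Cfp lies just over it, Cd59a straddles it, and the terminal pathway lies wholly under it.

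Among the 5 membrane regulators Cr1l alone was above, against 22.9% of all genes, and 3 were below, against 65.0%. Cr1l controls the C3 and C4 fragments on mouse cells, and every replicate held 8.40 on the log2 scale, or a signal of 337 (limma adjusted p = 1.68e-06). The 3 values were equal in all 5 deposited decimals, which gives an SD of 0. With the typical spread of other probesets at a like level in place of 0, its limma adjusted p was 0.00268. Cd46, a cofactor for the cleavage of the same fragments and in mice known mainly from the testis, had 5.90, 5.90 and 5.12, with a mean of 5.64 ± 0.45 (SD, n = 3), and was below (limma adjusted p = 0.0337). Replicate 3 was the low sample, and without replicate 1 or replicate 2 the call was lost (adjusted p = 0.114 in either case). Cd55, the decay-accelerating factor that splits the enzymes cleaving C3, was below at 5.19 in each sample (limma adjusted p = 4.92e-10). With the typical spread in place of an SD of 0, the limma adjusted p of Cd55 was 0.000326.

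Cd59a and Cd59b encode the mouse inhibitors of pore assembly. For Cd59a the log2 values were 6.61, 6.08 and 6.98 in replicates 1 to 3. Replicate 3 lay over the limit and the others under it, and the mean of 6.56 ± 0.46 (SD, n = 3) was neither above nor below (limma adjusted p = 0.536 for the test of below). Cd59b had 4.66, 4.54 and 4.69 and was below (mean 4.63 ± 0.08, adjusted p = 0.000205 from limma). Both genes had their lowest value in replicate 2 and their highest in replicate 3. They are neighbours on chromosome 2 and are close copies, so probes of one could bind transcripts of the other, which was not tested.

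Cd46, Cr1l and Cr2 follow each other on chromosome 1 with no coding gene between them, and their calls were below, above and below. Their promoters are shown because they belong to adjacent genes of one family with different calls, as the 250 bases before the RefSeq start, 5′ to 3′. Capitals mark matches to any of 7 motifs searched on both strands.
Cd46, GRCm38.p6, chr1:195092249-195092498, minus strand: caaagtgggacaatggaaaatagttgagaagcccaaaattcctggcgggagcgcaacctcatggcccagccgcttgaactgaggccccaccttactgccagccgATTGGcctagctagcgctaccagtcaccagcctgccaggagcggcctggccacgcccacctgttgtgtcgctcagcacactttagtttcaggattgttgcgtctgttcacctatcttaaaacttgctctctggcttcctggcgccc
Cr1l, GRCm38.p6, chr1:195131571-195131820, minus strand: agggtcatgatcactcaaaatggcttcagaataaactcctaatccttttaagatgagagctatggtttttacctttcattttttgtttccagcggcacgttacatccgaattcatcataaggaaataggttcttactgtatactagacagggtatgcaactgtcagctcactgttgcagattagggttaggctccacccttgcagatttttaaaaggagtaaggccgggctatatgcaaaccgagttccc
Cr2, GRCm38.p6, chr1:195176720-195176969, minus strand: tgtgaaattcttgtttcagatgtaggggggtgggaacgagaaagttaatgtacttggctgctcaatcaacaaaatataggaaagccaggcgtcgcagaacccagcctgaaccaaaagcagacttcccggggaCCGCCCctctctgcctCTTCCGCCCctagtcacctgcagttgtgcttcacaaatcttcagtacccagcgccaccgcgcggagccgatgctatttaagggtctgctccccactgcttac
The motifs were the TATA box (TATAAA), the CCAAT box (CCAAT), the GC box (GGGCGG), an ETS core (CGGAAG), a STAT site (TTCNNNGAA), an interferon-stimulated response element (GAAA, any 2 bases, GAAA) and an NF-kB site (GGG, any 2 bases, TTTCC). The Cr1l window held no match to these letters. The window of Cd46 held a CCAAT box, a motif found in 33.9% of all 32851 promoter windows, and that of Cr2 held a pair of GC boxes, found in 32.7%, the nearer of which overlaps an ETS core, found in 13.6%. RefSeq windows were on hand for 26 of the 35 genes, in 28 entries. Of these 28 windows 2 held the ETS core, those of Cr2 and Vsig4, and 3 held the TATA box, found in 12.4% of all windows, those of C3ar1, C7 and Hc. A match is a run of letters and not a bound site.

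Soluble regulators were measured for 3 genes, with 2 above, against 22.9% of all genes, and 1 below, against 65.0%. Serping1 encodes the inhibitor of the C1 and lectin pathway proteases. Replicates 1 and 2 both held 7.82 and replicate 3 held 8.51, the highest of the samples, and the mean of 8.05 ± 0.40 (SD, n = 3) was above 100 (limma adjusted p = 0.0397). The adjusted p was 0.209 without replicate 1 and 0.208 without replicate 2. Clu had 7.64, 7.45 and 7.63 and was above, at 7.57 ± 0.11 (limma adjusted p = 0.00695), with replicate 2 the lowest. Without replicate 1 the adjusted p of Clu was 0.094. The kidney is known to make clusterin in its tubules too. For the 10 proximal tubule markers the log2 of the summed signals was 13.95, 13.68 and 13.74 in replicates 1, 2 and 3. For the 6 genes of the thick ascending limb and distal segments it was 11.92, 11.31 and 12.04. The strongest genes weigh most in such sums. Both sums were lowest in replicate 2, as were 5 members, namely Clu, Cd59a, Cd59b, C1s1 and C8g. Among the proximal tubule markers, Kap and Slc3a1 were lowest in replicate 3, and Cubn was equal in all samples. The part of tubule RNA in the signals of the members was not tested. Cfi, the protease factor I that cleaves the active fragments and is made mostly in the liver, was below at 4.36, 4.36 and 4.05 (limma adjusted p = 0.00083).

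Of the 5 receptors Cd93 was above, against 22.9% of all genes, and 4 were below, against 65.0%. Cd93, a C-type lectin domain protein first described as a receptor for C1q, had log2 signals of 11.16, 11.34 and 11.25. All samples lay close together, with a mean of 11.25 ± 0.09 (SD, n = 3), a signal of 2437 (limma adjusted p = 0.000222). It was above 100 under every alternative listed in the closing section. C3ar1 and C5ar1, the receptors for the anaphylatoxins C3a and C5a, were below, at 4.70 ± 0.04 for C3ar1 (adjusted p = 6.14e-05) and at 4.50 in each sample for C5ar1 (adjusted p = 3.54e-10). Cr2, the receptor of B cells and follicular dendritic cells for C3 fragments, was below at 4.44 in each sample (limma adjusted p = 3.54e-10). With the typical spread in place of an SD of 0, the limma adjusted p was 0.000146 for C5ar1 and 0.000145 for Cr2. Vsig4, the C3 fragment receptor of resident macrophages, was below at 3.62 ± 0.07 (adjusted p = 6.09e-05). For these 4 genes of leukocytes, the log2 of the summed signals of the macrophage list was 9.14, 9.17 and 9.37.

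Of the 5 genes of the C1 complex 4 were below the limit, against 65.0% of all genes, and C1s1 was neither. The recognition subunit C1q is built from 3 chains, made chiefly by macrophages, and their genes sit side by side on chromosome 4. C1qa had 5.70 in each sample, C1qb had 5.49, 5.55 and 5.49, and C1qc had 5.77, 5.89 and 5.89. All 3 were below, with adjusted p-values from limma of 2.35e-09, 9.35e-05 and 0.00122. With the typical spread in place of an SD of 0, the limma adjusted p of C1qa was 0.000838. C1ra, the protease that activates C1s, was below at 5.72, 5.61 and 5.61 (limma adjusted p = 0.000593). A further probeset assigned to both C1ra and its copy C1rb held 4.90 in each sample. C1s1, the protease that cleaves C4 and C2, had 4.50, 4.46 and 6.14. Replicate 3 stood apart from the others, with a range of 1.68 on the log2 scale, and all values lay under the limit. With a mean of 5.03 ± 0.96 (SD, n = 3) the gene was not called (limma adjusted p = 0.0588 for the test of below), and it was below without replicate 3 (adjusted p = 0.000481). C1s1 was also below after quantile normalization (adjusted p = 0.034), with equal column medians (adjusted p = 0.0354) and with equal values given the typical spread of the rest (adjusted p = 0.0211). With the mean of the probesets of each gene it was below too (limma adjusted p = 0.0418). C1s1 has 1 probeset, so there its values were unchanged and only the fit over all genes differed.

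In the lectin pathway 4 of 4 genes were below, as were 65.0% of all genes. Mbl1 and Mbl2 encode the mannose-binding lectins of the liver and had mean log2 signals of 4.81 and 5.59. Their proteases Masp1 and Masp2 had means of 5.23 and 5.36. The range between samples was at most 0.02 in each of these genes. Masp2 and Mbl1 held equal values in the 3 samples, and the largest limma adjusted p of the 4 was 8.1e-06, that of Mbl2. With the typical spread in place of an SD of 0, the largest was 0.00046, that of Masp2.

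Of the components that build the enzymes cleaving C3, Cfb and Cfp were above and C2 and C4b below. Over all genes 22.9% were above and 65.0% below. Cfb is the alternative pathway counterpart of C2. Its values were 8.75, 8.38 and 8.08, a range of 0.66, and each sample was over the limit. The mean of 8.40 ± 0.33 (SD, n = 3) was above 100 (limma adjusted p = 0.0181), with an adjusted p of 0.0866 without replicate 1 and 0.172 without replicate 2. The part of tubule RNA in the Cfb signal was not tested. C2 was below at 5.30 in each sample (limma adjusted p = 6.11e-10). The genes are immediate neighbours on chromosome 17. C4b, the source of the classical C3 convertase with C2, lies in the same region and was below at 5.19 in each sample (limma adjusted p = 4.85e-10), and its near-identical copy C4a, which has a probeset of its own, had 4.60 in each. Whether the probes keep the copies apart was not tested. With the typical spread in place of an SD of 0, the limma adjusted p was 0.0004 for C2 and 0.000322 for C4b. Cfp was at 6.72 in each sample, a signal of 105 (limma adjusted p = 3.9e-05). This call rests on equal values next to the limit, and it was lost with the spread of the other probesets, after quantile normalization (adjusted p = 0.153) and after the columns were shifted to the same median (adjusted p = 0.1).

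In the terminal pathway all 7 genes measured were below, the call of 65.0% of all genes. Hc, which encodes C5, had 4.92 in each sample, and C6 had 4.46, 4.50 and 4.50. C7 and C9, pore components of the same family on chromosome 15, had 4.67 and 3.97 in each sample. The chains of C8 were at 5.17 in each sample for C8a, at 4.89, 5.05 and 4.89 for C8b, and at 5.85, 5.67 and 5.85 for C8g. The largest adjusted p among the 7 genes was that of C8g, 0.00215 from limma.

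**Figure D3:**
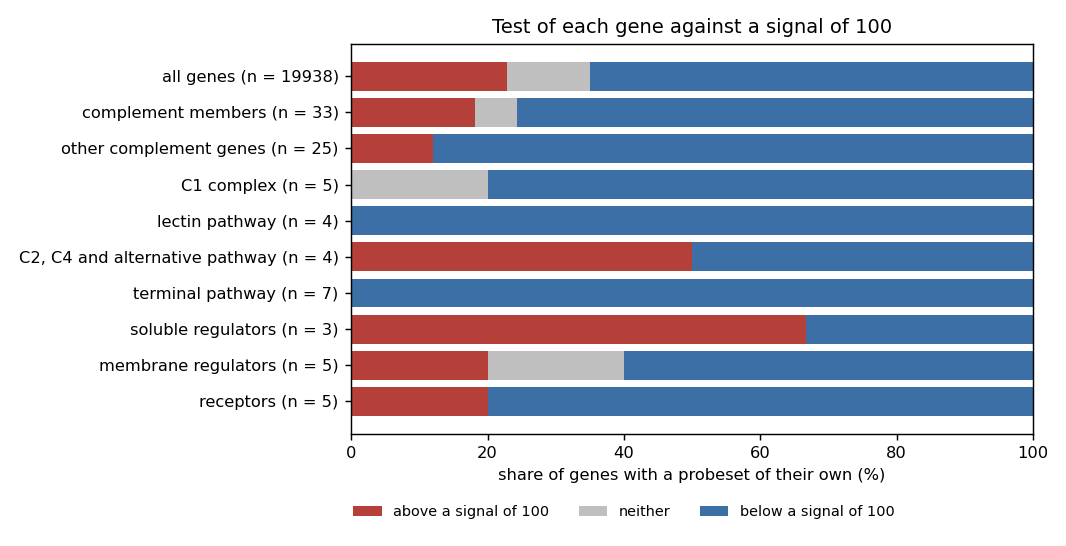
Share of genes called above (red), neither (grey) or below (blue) a signal of 100 by limma, as percent of the genes with a probeset of their own, for all genes, the complement members, the other complement genes and each role, with the number of genes beside each bar. The lectin and terminal pathways are wholly below, and 2 of 3 soluble regulators and 2 of 4 genes of the C2, C4 and alternative group are above.

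Other genes tied to complement gave 3 of 25 measured above 100, against 22.9% of all genes, and 22 below, against 65.0%. Thbd, the endothelial thrombin receptor thrombomodulin that also restrains complement, was above at 9.78, 9.77 and 9.63, and it is the neighbour of Cd93 on chromosome 2. C1qbp and Calr, which bind C1q but act mainly in mitochondria and the endoplasmic reticulum, were above at 8.22 and 9.64 in each sample. The integrin genes of the complement receptors of leukocytes, Itgam, Itgax and Itgb2, were below, at means of 4.05, 4.94 and 5.51. Also below were Cd55b at 2.89, the copy of Cd55 beside it, and C5ar2 at 5.22, the neighbour of C5ar1. The ficolins Fcna and Fcnb and the collectins Colec10 and Colec11, which start the lectin pathway, were below at 5.11, 5.59, 5.23 and 5.90.

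The samples differed by 0.3 or more on the log2 scale in 6 of the 33 members, a limit chosen after the values were seen, against 20.5% of all genes. These were C1s1 with a range of 1.68, Cd59a with 0.91, Cd46 with 0.78, Serping1 with 0.69, Cfb with 0.66 and Cfi with 0.31. Replicate 3 was the highest sample for C1s1, Cd59a and Serping1 and the lowest for Cd46, Cfb and Cfi. Among the other complement genes, C1s2, the copy of C1s1, had 3.66, 3.79 and 5.02, Susd4, a membrane protein with complement control repeats, had 5.08 and 5.12 in replicates 1 and 2 and a range of 0.92, and C4bp, a plasma cofactor, had 4.72, 4.65 and 5.05. Replicate 3 was the highest in all of these.

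Markers of smooth muscle, pericytes and mesangium moved with replicate 3 as well. The log2 of their summed signals was 10.63, 10.64 and 11.75 in replicates 1, 2 and 3, and all 6 genes were highest in replicate 3. Myh11 had 7.79, 8.14 and 9.44, Tagln 6.41, 6.78 and 8.08, and Rgs5 9.65, 9.70 and 10.64. For the fibroblast markers the log2 of the summed signals was 8.32, 8.38 and 8.34, with Col1a1, Col1a2 and Col3a1 equal in the 3 samples. In this list 4 of 6 genes held equal values, as did 51.2% of all genes, and 5 were below 100. Such values cannot show a difference between samples. Lum, at 3.88, 3.88 and 4.17, was highest in replicate 3, and Dcn, at 4.74, 5.32 and 4.74, in replicate 2. The part of smooth muscle, pericyte or mesangial cells in the replicate 3 values of C1s1, Cd59a and Serping1, or of Cd46, Cfb and Cfi, was not tested. For the endothelial markers the log2 of the summed signals was 13.48, 13.58 and 13.26.

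**Figure D4:**
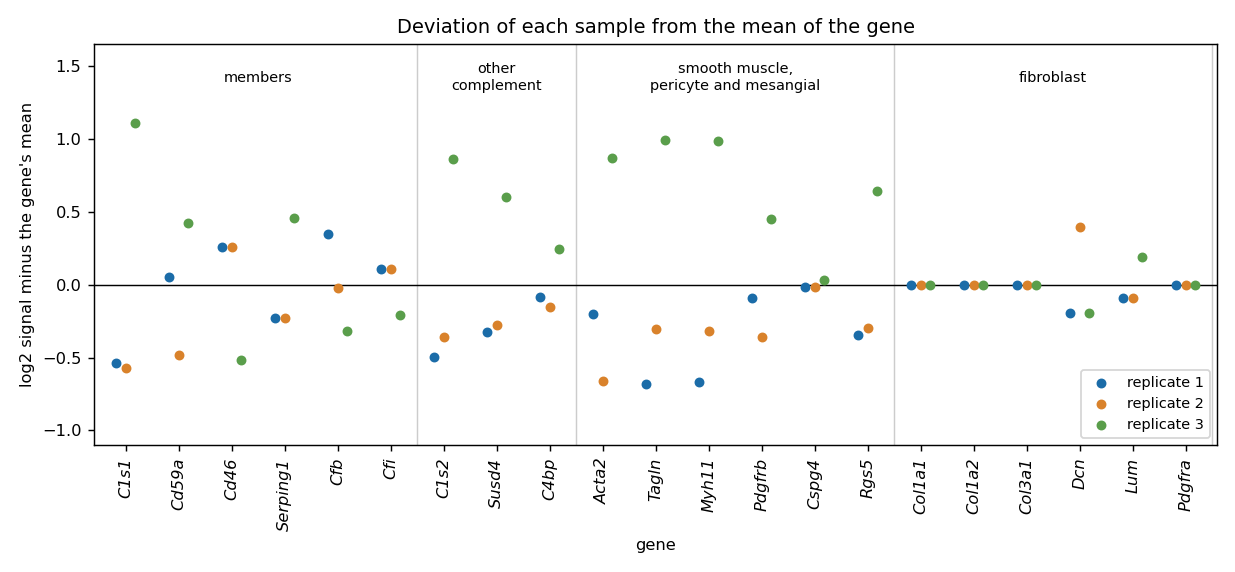
Log2 signal of each replicate minus the mean of the gene, for the 6 complement members and 3 other complement genes with a range of 0.3 or more, and for markers of smooth muscle, pericytes and mesangium and of fibroblasts. C1s1, Cd59a, Serping1, C1s2, Susd4 and C4bp lie highest in replicate 3, and Cd46, Cfb and Cfi lie lowest there. Acta2, Tagln, Myh11, Pdgfrb, Cspg4 and Rgs5 lie highest in replicate 3. Of the 6 fibroblast markers 4 hold equal values in the 3 samples, as do 51.2% of all genes.

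Many values were not particular to one gene. In 14 of the 33 members the 3 samples held equal values, 12 of them below and 2 above, against 51.2% of all genes. In 11 members the same 3 values recurred at other, unrelated probesets, against 42.9% of all genes. The 3 values of C5ar1, 4.50 in each sample, were found at 130 other probesets, those of Cr2 at 123, those of C8a and C9 at 120 each, those of C1qa at 96 and those of Hc at 83. Hc shared its values with the macrophage gene Csf1r and with Crp, and Cd55 shared its 5.19 with Cd68. By contrast Cd93, Cr1l, Clu, Cfb and Serping1 each had a set of 3 values found at no other probeset, and of the genes above the limit Cfp alone shared its own, with 4 others. Over all genes the share with recurring values was 17.6% among those above and 59.8% among those below.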

How the data were processed

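RNA of 3 samples of sorted cortical endothelial cells was amplified in 1 round and hybridized to Affymetrix Mouse Gene 1.0 ST arrays. The deposited values are log2 signals, 1 per probeset and array, which the authors obtained by RMA in GeneSpring GX according to the methods; the submitters' processing notes name Affymetrix Expression Console, of unstated version. The table held 35557 probesets, of which 21789 were assigned to 1 gene, 1621 to several and 12147 to none, and 0 values were missing. Precision is limited by the 3 arrays. The study reports 3 or more independent samples for each cell type, while the labels do not say that the kidneys came from separate mice. The p-values therefore measure the spread between these samples only, and that spread is 0 where the 3 values are equal.

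Log2 signal minus log2 of 100 was modelled by a mean alone for every probeset (limma 3.58.1, R 4.3.3, variance trend on mean level) and tested one-sided each way with Benjamini-Hochberg adjustment over all probesets. There were 2 residual and 0.297 prior degrees of freedom. In 40.5% of probesets the 3 values were equal, which gives small p-values. The test was tested on simulated data, with no outcome given here, and no call in the text rests on it. Summaries used pandas 2.3.3 in Python 3.11.15. Promoters come from the RefSeq table of GRCm38.p6, and neighbours from its gene table, in which all 33 genes matched by symbol. Named were all members, other complement genes that were above or stand beside a member, and up to 4 genes per marker list. The list of smooth muscle, pericytes and mesangium was an exception. All its genes were named, with values for Myh11, Tagln and Rgs5. The genes with a range of 0.3 or more, the collectins, ficolins and integrins were added after their values were seen. So were the tied genes, Lum, the values of Tyrobp and Cx3cr1, and the lowest and highest tubule markers. The members, lists and tests were chosen with earlier results of these data known. Alternatives were limits of 50 and 200, quantile normalization, equal column medians, no trend, equal values given the median spread of other probesets in 20 bins of mean level, adjustment over probesets of 1 gene, no test, other rules for a gene's probeset, and leaving out each replicate. All 33 measured members had 1 probeset, so the other rules for a gene's probeset left their values unchanged.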

Additional observations from a re-analysis of the deposited data

How the results depend on the processing

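The number of members above a signal of 100, 6, was 8 with a limit of 50, with C1qa and C1qc added (limma adjusted p = 2.22e-06 and 0.031), 2 with a limit of 200 (Cd93 and Cr1l), between 3 and 6 when 1 replicate was left out, and 5, without Cfp, after quantile normalization, with columns shifted to the same median and with equal values given the spread of the others. With the limit of 50 the C1qa call rests on equal values 0.0581 log2 over it, which recurred at 96 other probesets. The number of members below, 25, stayed between 20 and 28 under the alternatives run. Other complement genes above numbered 7 with a limit of 50, with C1rl, Colec11, Colec12 and Vtn added, and 3 under the other alternatives run. Shares of all genes were computed only for the main test, for no test and for equal values given the spread of the others. The counts under the remaining alternatives therefore describe the listed genes alone and cannot be set against all genes. Against a limit of 50 the mean log2 difference from the limit turned positive for C1qa (0.0581), C1qc (0.21), C8g (0.15) and Cd59a (0.91), and against a limit of 200 it turned negative for Cfp (-0.92) and Clu (-0.0733), by the construction of the limit. For Cd59a, below with a limit of 200 (adjusted p = 0.0243) and not called under the other tests run, the difference from 100 lay between -0.3009 and 0.1517 when 1 replicate was left out, with the positive value without replicate 2. With 1 replicate left out, 47.1% to 50.7% of probesets held equal values in the other samples, and so an SD of 0. No other member turned its direction. No paired analysis was possible because the samples form 1 group.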
